A study of Mus musculus with 12 samples.

Results

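The genes examined were those of MHC class I and of the machinery that loads peptides onto it: the peptide transporter subunits Tap1 and Tap2, tapasin (Tapbp), the light chain B2m, and the class I heavy chains H2-K1, H2-D1, H2-Q4, H2-T23, H2-T24 and H2-M3. Every probe set whose gene symbol in the platform's probe table was 1 of these 10 genes was taken, which gave 17 of the 12488 probe sets on the array, which names 8252 genes singly. Of the 10 genes, 9 had a probe set of their own and H2-T23 had none. A further 4 probe sets carried a listed gene together with other genes and are described apart, since no single gene can be named from them. Probe sets were taken by symbol only, with no measured value used. The list of genes itself was chosen with earlier results of these data known.

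MHC class I molecules display peptides from inside the cell to CD8 T cells. Peptides are cut by the proteasome in the cytosol, pumped into the endoplasmic reticulum by the TAP1-TAP2 heterodimer, and loaded with the help of tapasin, which bridges TAP and the empty heavy chain bound to B2m. H2-K1 and H2-D1 are classical heavy chains, while H2-Q4, H2-T23, H2-T24 and H2-M3 are nonclassical ones with narrower roles, such as the display of formylated peptides by H2-M3. Interferon gamma (IFN-γ) is the classical inducer of this pathway, in part through the interferon regulatory factors. SOCS3 is an inhibitor of signalling downstream of the interleukin 6 (IL-6) receptor chain gp130.

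Liver total RNA had been hybridised to 12 Affymetrix mouse arrays (6 groups, 2 arrays each), with livers taken 4 h after the intraperitoneal injection. Control mice, labelled albumin-cre(-) Socs3(w/fl), carried a wild-type and a floxed Socs3 allele and no Cre. They were injected with phosphate-buffered saline (PBS) or IL-6. Mice labelled albumin-cre(+) Socs3(-/fl) carried a null and a floxed Socs3 allele with Cre driven by the hepatocyte promoter of albumin, so that other liver cells kept their floxed allele. They are called Socs3-deleted here and received PBS or IL-6. Interferon-gamma-/- mice, which lack the cytokine itself, received PBS or IFN-γ. No IFN-γ was given to mice with an intact Ifng gene and no IL-6 to Interferon-gamma-/- mice. The labels give no age, strain background or dose, and do not say whether replicates were separate mice, so p-values measure the spread between these arrays, which may be technical. Each group had 2 arrays, and their number limits the precision of every value below.

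The arrays had median intensities of 80.6 to 85.7 and log2 replicate correlations of 0.987 to 0.993. The 8 measured hepatocyte markers were above the low-signal floor of 33.0 on every array. The Socs3 probe set 92232_at read 124 and 117 in control and 76.8 and 74.4 in Socs3-deleted mice under PBS, while Ifng lay below the floor in all groups and checks no label. Control PBS replicate 2 and Socs3-deleted PBS replicate 2 stood apart in pancreatic acinar markers (summed intensity up to 16015 against 1160.5 to 1454 on the other arrays), with Prss2 at 651 and 1863. For the class I, loading and pathway genes, calls lost without these 2 arrays are named beside each result. Calls among cell type markers were not checked in this way.

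Tap1 was the member that changed. Its probe set 103035_at rose after IFN-γ and rose in Socs3-deleted mice given IL-6, while the other 16 probe sets did not pass the test in any of the 8 comparisons. Tap1 read 143 and 151 in Interferon-gamma-/- mice given PBS and 985 and 841 in those given IFN-γ. It read 159 and 154 in Socs3-deleted mice given PBS and 789 and 701 in those given IL-6. In control mice it read 149 and 127 under PBS and 341 and 179.95 under IL-6. Both cytokine arrays lay above both PBS arrays in each of these 3 pairs of groups, and the 2 control IL-6 arrays were far apart.

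The fits were made with limma on log2 intensities over the 9641 probe sets that were above the floor on at least 2 arrays, and a probe set was called at a Benjamini-Hochberg adjusted p under 0.05 over all of them. Tap1 rose 6.20-fold after IFN-γ, a log2 change of 2.63 ± 0.24 (SE; 95% interval 2.08 to 3.18; limma adjusted p = 0.00149). It rose 4.76-fold in Socs3-deleted mice given IL-6, a log2 change of 2.25 ± 0.24 (1.70 to 2.80; limma adjusted p = 0.00321). In control mice the IL-6 response was 0.85 ± 0.24 (0.30 to 1.40) and was not called (limma adjusted p = 1). Over all probe sets, 63 were called after IFN-γ (0.653%), 113 in Socs3-deleted mice given IL-6 (1.17%) and none after IL-6 in control mice (0%), where 248 had an unadjusted p under 0.05 by the same limma fit. Beside these shares stood 1 of 17 member probe sets in the IFN-γ response, 1 of 17 in the IL-6 response of Socs3-deleted mice, and 0 of 17 in that of control mice. Both Tap1 calls kept an adjusted p under 0.05 when any single array was left out (0.0316 and 0.0367 at the most). Without the 2 arrays high in pancreatic markers, the IFN-γ response kept its call (adjusted p = 0.0283) and the IL-6 response of Socs3-deleted mice read 2.23 with an adjusted p of 0.103.

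Under IL-6, Tap1 was higher in Socs3-deleted than in control mice (log2 1.59 ± 0.24, limma adjusted p = 0.0222), the 1 called member among 92 called probe sets (0.954%). This call was lost in 5 of the 12 fits that left out an array, where the adjusted p ran up to 0.0987: without either control PBS array (0.0506), without control IL-6 replicate 2 (0.051, log2 1.12), and without Socs3-deleted IL-6 replicate 1 (0.0969) or 2 (0.0987). It was also lost without the 2 arrays high in pancreatic markers (0.106). The IL-6 response of Socs3-deleted mice minus that of control mice was tested directly. It was 1.40 ± 0.35 for Tap1 (0.62 to 2.18) and was not called (limma adjusted p = 0.568), in a comparison with 4 called probe sets (0.0415%) and no member among them. The control IL-6 arrays set this value: without replicate 1 of that group, at 341, the difference was 1.86 (adjusted p = 0.0151), and without replicate 2, at 179.95, it was 0.94 (adjusted p = 0.838). Without replicate 2 the control response itself was 1.31 (adjusted p = 0.0326), and without replicate 1 it was 0.39 (adjusted p = 1).

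The order of the Tap1 group means was 913 ± 102 (SD, n = 2) after IFN-γ, 745 ± 62.4 in Socs3-deleted mice given IL-6, 261 ± 114 after IL-6 in control mice, and 138 to 156 in the 3 PBS groups. The first and second of these responses did not differ beyond their error: the IL-6 response of Socs3-deleted mice minus the IFN-γ response of Interferon-gamma-/- mice was -0.38 (-1.16 to 0.40, limma adjusted p = 1). In that comparison 2 probe sets were called (0.0207%), neither a member. Against control mice under PBS, Tap1 was at 0.18 (-0.37 to 0.73) in Socs3-deleted and 0.10 (-0.45 to 0.65) in Interferon-gamma-/- mice, both intervals holding 0. No probe set was called in either baseline comparison (0% in both; 402 and 297 with an unadjusted p under 0.05 by limma), and so none of the 17.

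The second Tap1 probe set, 162278_r_at, did not follow the first. It read 73.7 and 58.1 under PBS and 61.6 and 60.2 after IFN-γ, and 59.2 and 55.9 under PBS and 65.1 and 66.7 in Socs3-deleted mice given IL-6. Its log2 changes were -0.10 and 0.20, both with intervals that included 0. The suffix _r_at marks a probe set for which some of the platform's probe selection rules were dropped.

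**Figure D1:**
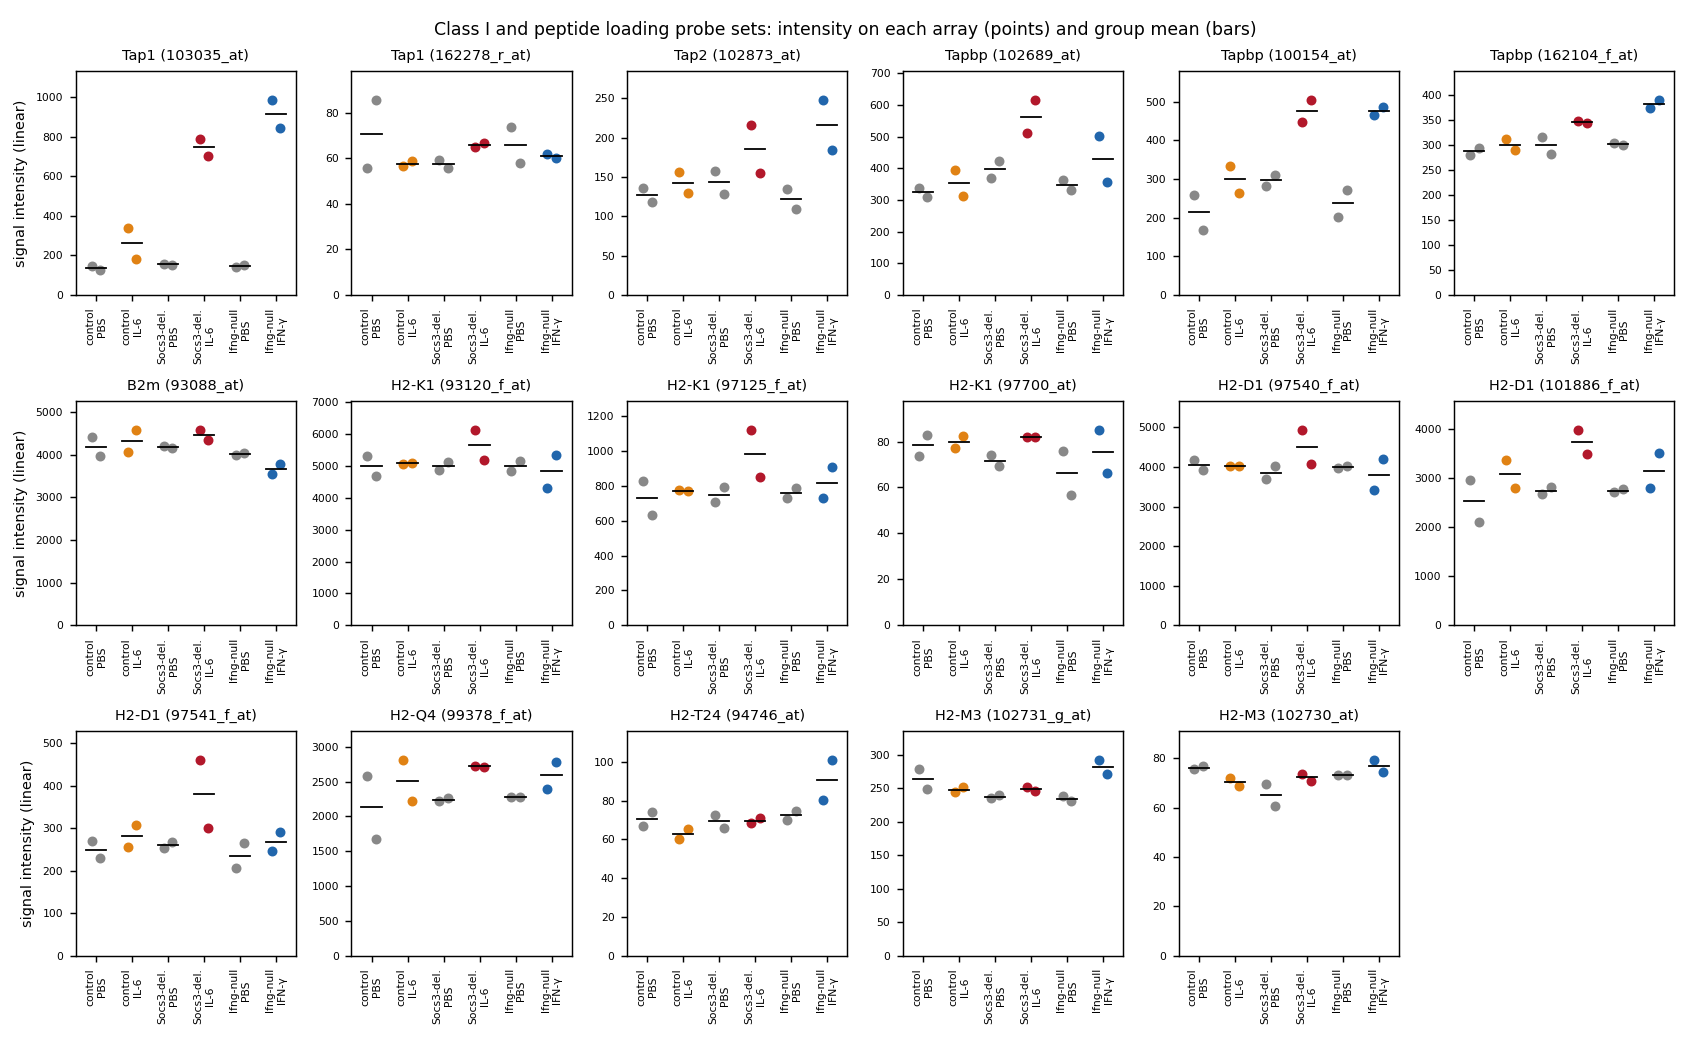
Linear signal intensity of the 17 class I and peptide loading probe sets, 1 panel each, on all 12 arrays (points) with the mean of the 2 arrays of each group (horizontal bars). Tap1 103035_at stands at 701 to 985 in Socs3-deleted mice given IL-6 and Interferon-gamma-/- mice given IFN-γ and at 127 to 341 on the other arrays, while B2m stays between 3556 and 4575.

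Tap1 lies in the class II region of chromosome 17. In the RefSeq gene order (GRCm38.p6) it is flanked by Psmb9 and Psmb8, the genes of immunoproteasome subunits, with Tap2 after Psmb8. Tap1 and Psmb9 point away from each other, and their starts bound a shared stretch of 225 bases. It is shown because both genes were called in the same 2 responses. The stretch is printed on the plus strand, from the side of Psmb9 to that of Tap1, at chr17:34187331-34187555, and capitals mark matches to the kappaB core.

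Psmb9 to Tap1: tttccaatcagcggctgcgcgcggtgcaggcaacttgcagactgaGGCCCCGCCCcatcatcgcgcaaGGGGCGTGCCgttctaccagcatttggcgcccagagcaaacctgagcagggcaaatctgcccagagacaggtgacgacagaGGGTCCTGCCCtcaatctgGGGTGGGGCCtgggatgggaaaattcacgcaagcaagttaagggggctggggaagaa

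The promoter of B2m, which was measured at a steady level, is shown beside it as the 250 bases before its start at chr2:122147437-122147686 on the plus strand. That of H2-K1, a heavy chain picked after its values were seen, is given at chr17:34000348-34000597 on the minus strand. In both, capitals mark the same kappaB core and, in B2m, the core of the interferon-stimulated response element (ISRE).

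B2m: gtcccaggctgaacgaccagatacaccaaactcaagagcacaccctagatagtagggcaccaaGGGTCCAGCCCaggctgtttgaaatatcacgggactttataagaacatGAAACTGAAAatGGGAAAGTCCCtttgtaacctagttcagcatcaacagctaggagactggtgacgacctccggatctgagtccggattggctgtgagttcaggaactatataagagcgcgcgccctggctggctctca

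H2-K1: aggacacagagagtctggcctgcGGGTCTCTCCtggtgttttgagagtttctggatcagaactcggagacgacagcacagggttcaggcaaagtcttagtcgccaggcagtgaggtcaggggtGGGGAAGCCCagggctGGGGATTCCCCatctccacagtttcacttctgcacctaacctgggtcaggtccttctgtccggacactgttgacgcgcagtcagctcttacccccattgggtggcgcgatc

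The sequences are from RefSeq (GRCm38.p6). A promoter was found for 8 of the 10 genes (9 starts in all), and none for Tap2 or H2-T24. The 250 bases before each start were searched on both strands. The ISRE core (GAAANNGAAA) occurred in 2 of the 8 genes, B2m and H2-T23, and in 2.98% of 32851 mouse promoters. The core of the gamma-activated site (TTCNNNGAA) occurred in 1, H2-M3, against 7.02% of promoters. The kappaB core (GGGNNNNNCC) occurred in 6 against 45.8%, the CCAAT box in all 8 against 33.8%, and the CRE-like core (TGACG) in 6 against 17.8%. Matches to the kappaB core can overlap, and the shared Tap1 stretch held 5 of them, with 1 CCAAT box and 1 TGACG. A match is a description of letters in this window, and a missing match says nothing about the factor.

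Tap2 and tapasin, the partners of Tap1 in peptide loading, had higher values after the cytokines and did not pass the test. Tap2 read 135 and 109 under PBS and 248 and 184 after IFN-γ, with the groups apart (log2 0.81, 0.34 to 1.29, limma adjusted p = 0.245). In Socs3-deleted mice it read 158 and 129 under PBS and 216 and 155 after IL-6, so the groups overlapped (0.36, -0.12 to 0.83). In control mice it read 137 and 118 under PBS and 156 and 129 after IL-6, again with overlap (0.16). Its adjusted p was 0.662 in Socs3-deleted and 1 in control mice by limma.

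Tapbp had 3 probe sets, and the size of their values depended on which was read. Tapbp 100154_at read 203 and 272 under PBS and 466 and 486 after IFN-γ, 2.03-fold higher (log2 1.02, 0.54 to 1.50, limma adjusted p = 0.102). In Socs3-deleted mice it read 283 and 310.1 under PBS and 448 and 504 after IL-6 (0.68, 0.20 to 1.16, limma adjusted p = 0.231). In control mice it read 258 and 169 under PBS and 335 and 265 after IL-6. The groups were apart in all 3 pairs, and the control response of 0.51 was 0.20 without control PBS replicate 2, one of the arrays high in pancreatic markers.

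For Tapbp 102689_at the log2 changes were 0.29 after IFN-γ, 0.50 in Socs3-deleted mice given IL-6 and 0.12 in control mice. Its 2 IFN-γ arrays, at 504 and 357, bracketed a PBS array at 362, and without the first of them the change was 0.04. For Tapbp 162104_f_at they were 0.34, 0.21 and 0.07. The smallest limma adjusted p of these 2 probe sets in the 3 responses was 0.32. Tapasin was therefore higher on every probe set by a point estimate of 0.29 to 1.02 after IFN-γ, with no call.

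B2m stayed near its PBS level in all groups. It read 3992 and 4029.6 under PBS and 3556 and 3782 after IFN-γ, both IFN-γ arrays below both PBS arrays. In Socs3-deleted mice it read 4209.98 and 4164 under PBS and 4567 and 4336 after IL-6, both IL-6 arrays above. In control mice it read 4408 and 3966 under PBS and 4062 and 4575 after IL-6, with overlap. The log2 changes were -0.13 (-0.36 to 0.10), 0.09 (-0.14 to 0.32) and 0.04 (-0.18 to 0.27). These intervals bound the B2m response to between 0.780-fold and 1.25-fold in the 3 pairs. After quantile normalization the IFN-γ value was -0.02. The highest intensity of any probe set on any array was 14680, and saturation of the B2m probes themselves was not tested.

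The heavy chains had 10 probe sets of their own, of which 6 carried the suffix _f_at. That suffix marks probes shared within a gene family, so these probe sets may read several heavy chains at once. No heavy chain probe set was called in any of the 8 comparisons. After IFN-γ their log2 changes lay between -0.08 and 0.31 with a median of 0.18, against -0.03 for all probe sets tested, and 8 of 10 were positive. Without IFN-γ replicate 2 the median was 0.08 with 7 positive, without IFN-γ replicate 1 it was 0.24 with all 10 positive, and after quantile normalization 0.21 with all 10 positive. After IL-6 they lay between 0.01 and 0.51 with a median of 0.21 in Socs3-deleted mice, where all 10 were positive (9 after quantile normalization or without the 2 arrays high in pancreatic markers), and between -0.17 and 0.30 with a median of 0.03 in control mice, where 6 were positive. The median over all probe sets was 0.00 and -0.01 in those 2 responses.

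H2-K1, a classical heavy chain, was read by 3 probe sets. H2-K1 93120_f_at read 4839 and 5169.9 under PBS and 4316 and 5359 after IFN-γ, and 4886 and 5138 under PBS and 6128 and 5179 in Socs3-deleted mice given IL-6. The IFN-γ arrays bracketed their PBS arrays (log2 -0.06), while both IL-6 arrays of Socs3-deleted mice lay above theirs (0.17, -0.13 to 0.47). H2-K1 97125_f_at read 707 and 794 under PBS and 1120.04 and 851 in Socs3-deleted mice given IL-6 (0.38, -0.01 to 0.78, limma adjusted p = 0.488). Without Socs3-deleted IL-6 replicate 1 that value was 0.18 and without replicate 2 it was 0.58. H2-K1 97700_at, with no family suffix, read only 56.6 to 85.0 over all arrays. It changed by 0.19 in both responses (-0.17 to 0.55 in each). Its IFN-γ and PBS arrays overlapped, and without Interferon-gamma-/- PBS replicate 2 the IFN-γ value was -0.02.

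H2-D1, the other classical heavy chain, was also read by 3 probe sets. H2-D1 101886_f_at read 2668 and 2816 under PBS and 3977 and 3491 in Socs3-deleted mice given IL-6, with the groups apart (log2 0.44, 0.05 to 0.84, limma adjusted p = 0.384). H2-D1 97541_f_at had the largest heavy chain value in that response, from 254 and 268 to 459.95 and 301 (0.51, 0.04 to 0.98, limma adjusted p = 0.40). It rested on the first IL-6 array: the value was 0.20 without it and 0.82 without the other. H2-D1 97540_f_at gave 0.22 there and -0.08 after IFN-γ, the latter turning to 0.06 after quantile normalization. Neither classical gene had a call, and the 6 estimates in Socs3-deleted mice given IL-6 ran from 0.17 to 0.51.

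The nonclassical chains had no call either. H2-T24 had the largest heavy chain estimate after IFN-γ and the smallest in Socs3-deleted mice given IL-6. H2-Q4, of the Qa-2 region, read 2214 and 2266 under PBS and 2725 and 2709.9 in Socs3-deleted mice given IL-6 (0.28, -0.15 to 0.70). In control mice H2-Q4 read 2578 and 1678 under PBS, and its IL-6 response of 0.26 turned to -0.05 without the second of these. H2-T24 read 70.01 and 74.8 under PBS and 80.2 and 100.85 after IFN-γ (0.31, 0.03 to 0.60, limma adjusted p = 0.652). Its IL-6 values were 0.01 in Socs3-deleted and -0.17 in control mice. H2-M3 102731_g_at read 238 and 231 under PBS and 292 and 272 after IFN-γ (0.26, 0.05 to 0.48, limma adjusted p = 0.532). For H2-M3 102730_at the IFN-γ value was 0.07.

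**Figure D2:**
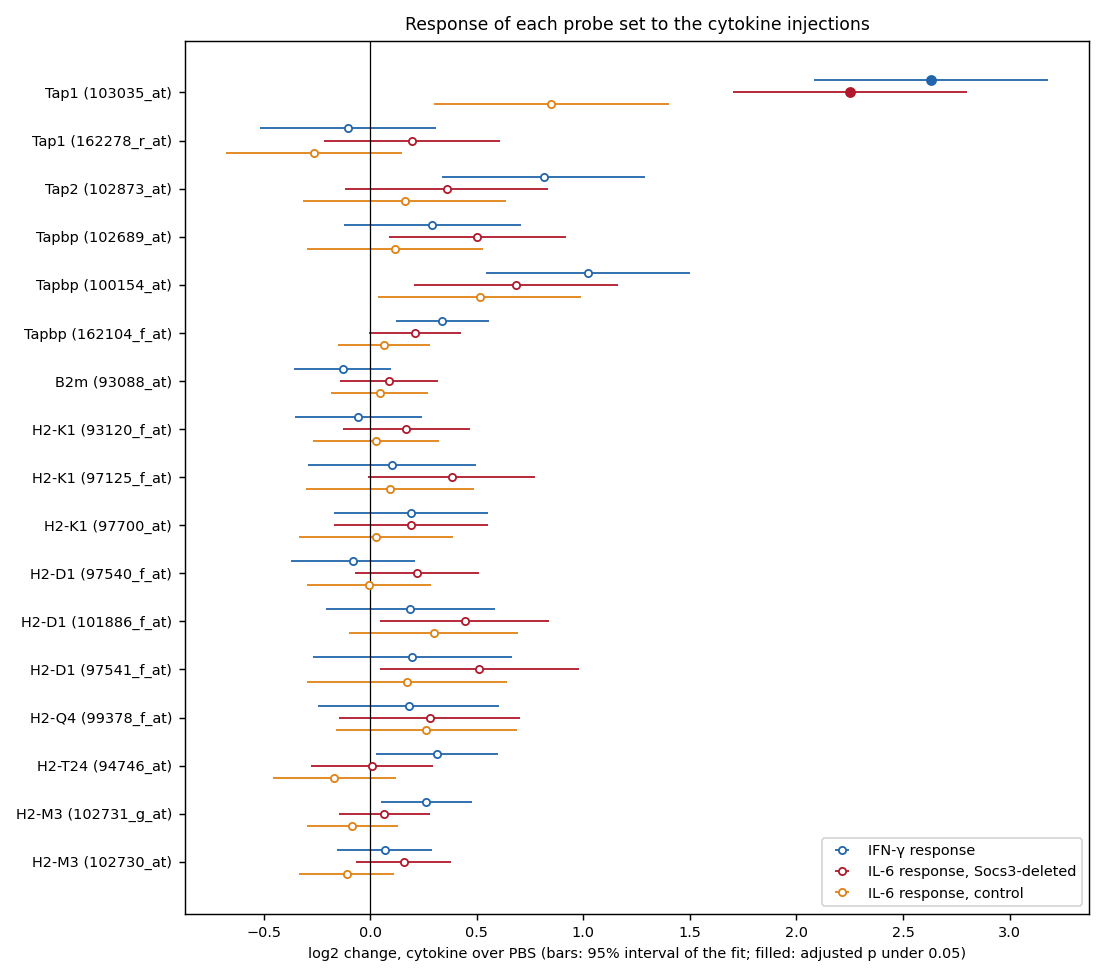
Log2 change of each of the 17 probe sets, cytokine over PBS, in the 3 responses, with the 95% interval of the limma fit (bars) and filled points where the adjusted p was under 0.05. The 2 filled points are Tap1 103035_at at 2.63 and 2.25, and the heavy chain estimates lie between -0.17 and 0.51.

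The family probe sets moved together from array to array. Over the 12 arrays the 21 pairs among the 7 class I _f_at probe sets, 1 of them shared among several genes, had Pearson correlations of 0.397 to 0.965 with a median of 0.755. The probe sets share arrays and scaling and may read the same transcripts, and what the correlations reflect was not tested. Control PBS replicate 2 was below replicate 1 on all 7, by a median log2 of 0.39, against 0.01 over all probe sets tested (SD 0.33). It was the lowest array for 4 of the 7, and Socs3-deleted IL-6 replicate 1 was the highest for 5. Every contrast with the control PBS group includes that low array. Without it, 3 of the 10 heavy chain probe sets were positive in the control IL-6 response in place of 6, with a median of -0.06.

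**Figure D3:**
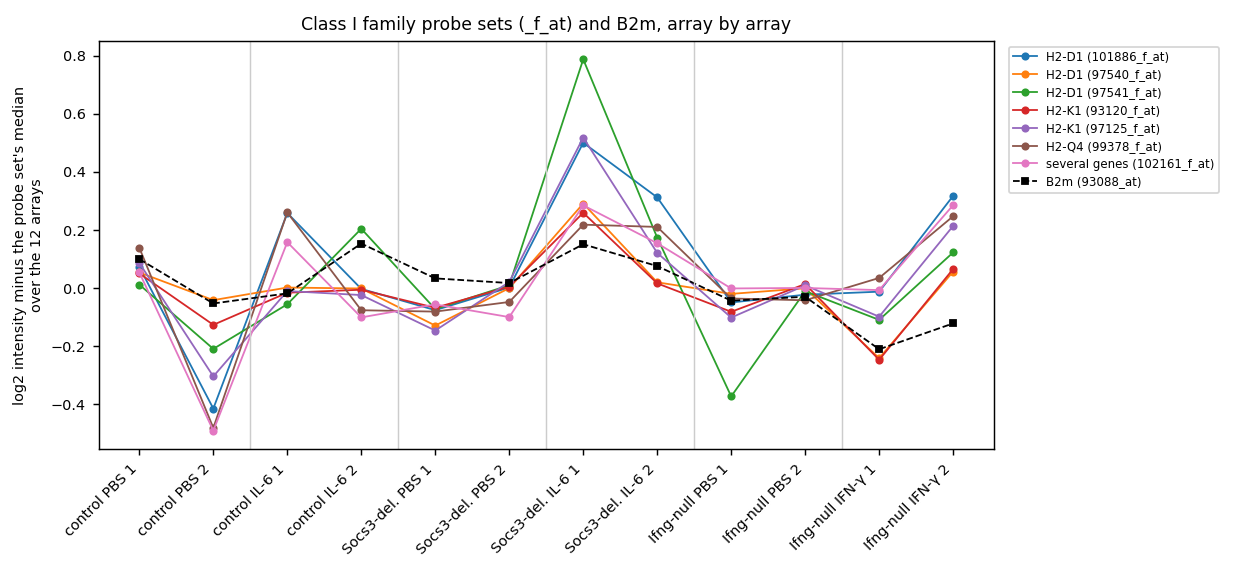
Log2 intensity of the 7 class I family probe sets and of B2m on each array, minus the median of the probe set over the 12 arrays; vertical lines separate the 6 groups. Control PBS replicate 2 is the lowest array for 4 of the 7 family probe sets and Socs3-deleted IL-6 replicate 1 the highest for 5, and the B2m line stays within a narrower band.

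The 4 shared probe sets were kept apart. The one matching H2-T-ps and H2-T23 (98472_at) is the nearest reading of H2-T23, the ligand Qa-1 that presents leader peptides to the receptor NKG2A on NK cells. It read 203 and 256 under PBS and 289.9 and 299 after IFN-γ (log2 0.37, limma adjusted p = 0.532). In Socs3-deleted mice it read 209 and 232 under PBS and 308 and 258 after IL-6 (0.35, limma adjusted p = 0.346). Both cytokine groups lay above their PBS groups, and the control response was 0.01. The probe set matching 10 genes, H2-K1, H2-D1 and H2-T23 among them (102161_f_at), changed by 0.14, 0.30 and 0.25 after IFN-γ, IL-6 in Socs3-deleted and IL-6 in control mice, and the last turned to -0.03 without control PBS replicate 2. The third (97174_r_at) changed by 0.05 or less in each, and the fourth (95773_at) lay below the floor on all arrays.

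Counted without a test of each, both cytokine arrays lay above both PBS arrays for 9 of 17 member probe sets after IFN-γ (9.57% of all probe sets tested), for 15 of 17 in Socs3-deleted mice given IL-6 (19.0%) and for 2 of 17 after IL-6 in control mice (12.6%). With 2 arrays against 2, the smallest exact two-sided permutation p for a single probe set is 0.333. The median log2 change of the members was 0.19 after IFN-γ, 0.22 in Socs3-deleted mice given IL-6 and 0.07 in control mice. Leaving out 1 array gave medians of 0.11 to 0.26, 0.19 to 0.29 and 0.03 to 0.12 in the same order. Of the 15 probe sets, 6 were the heavy chain _f_at probe sets, which may read the same transcripts and cannot be counted as separate readings.

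In bulk liver, fewer cells of a type and less RNA per cell cannot be told apart, so marker sums are given beside these values. Kupffer cell and macrophage markers (8 of 11 listed were measured, all above the floor) summed to 2636 to 2962 in Socs3-deleted mice given IL-6, against 1965 to 2234 in those given PBS, 1654 to 1831 in control mice given PBS and 1728 to 1803 in those given IL-6. They summed to 1678 to 1903 and 1625 to 2121 in Interferon-gamma-/- mice given PBS and IFN-γ. Of these 8 markers Cd14 was called in Socs3-deleted mice given IL-6 (1.34, limma adjusted p = 0.00121), and 5 of the 8 had a positive and 3 a negative change, the lowest being the Kupffer cell marker Clec4f (-0.14). Under PBS, Socs3-deleted mice had higher values than control mice for 8 of the 8, with no call. T and NK cell markers, with 5 of 9 above the floor on any array, summed to 521 to 538 and 545 to 598 in Socs3-deleted mice given PBS and IL-6, and to 494 to 563 and 480.1 to 534 in Interferon-gamma-/- mice given PBS and IFN-γ. Cd3g, Cd3d, Cd8a and Gzma were at or below the floor on all arrays. Endothelial markers (5 of 6 listed, all above the floor on some array) summed to 468 to 469 and 502 to 546 in Socs3-deleted mice given PBS and IL-6, and to 455 to 464 and 391 to 394 in Interferon-gamma-/- mice given PBS and IFN-γ, so their sum moved in opposite directions in the 2 responses in which Tap1 rose. Of these markers Tie1 had 2 probe sets, and in Socs3-deleted mice given IL-6 the dimmer was called (1.27, limma adjusted p = 0.00414) while the brighter was not (0.67, limma adjusted p = 0.0955). The hepatocyte sum was lower in both, at 35558 to 37551 against 42770.3 to 44989 and at 33958 to 36278 against 39477 to 39659. Over all arrays, B cell markers summed to 426 to 511, dendritic cell markers to 323 to 440.3, neutrophil markers to 369 to 429.7, and stellate cell and fibroblast markers to 1778 to 2621. The part of these cells in the Tap1 values was not tested. Whether the Cd14 and Tie1 calls held without the 2 arrays high in pancreatic markers was not checked.

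The proteasome genes that supply class I peptides also had calls. Of 8 proteasome and activator genes, the immunoproteasome subunits Psmb9, Psmb8 and Psmb10, which replace the constitutive catalytic subunits Psmb6, Psmb5 and Psmb7, rose both after IFN-γ and in Socs3-deleted mice given IL-6. Psmb9 went from 186 and 202 under PBS to 831 and 987 after IFN-γ, and from 197 and 215 to 544 and 589 in Socs3-deleted mice given IL-6. All cytokine arrays lay above their PBS arrays. The log2 changes were 2.23 and 1.46 for Psmb9 (limma adjusted p = 0.00333 and 0.0246), 1.71 and 1.47 for Psmb8 (0.025 and 0.0352), and 1.48 and 0.99 for Psmb10 (0.006 and 0.0295). In control mice the same 3 genes had values of 0.67, 0.58 and 0.40 after IL-6 with adjusted p of 1. Single arrays moved these: leaving out 1 gave 0.28 to 1.06 for Psmb9, 0.27 to 0.88 for Psmb8 and 0.18 to 0.63 for Psmb10, and without the 2 arrays high in pancreatic markers they were 0.42, 0.27 and 0.18.

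The constitutive subunits were not called, at -0.08, 0.06 and -0.14 for Psmb5, Psmb6 and Psmb7 after IFN-γ, and Psme1, an activator subunit, was at 0.56. In the comparison of genotypes under IL-6, Psmb10 was called (1.06, limma adjusted p = 0.0266). The calls of Psmb8 were each lost in 6 of 12 fits that left out an array (adjusted p up to 0.27 after IFN-γ and 0.215 after IL-6), those of Psmb9 in 0 and 4 (up to 0.0489 and 0.143), and those of Psmb10 in 2 and 6 (up to 0.0667 and 0.184). The Psmb10 call between genotypes was lost in 7 (up to 0.242). All 3 calls after IL-6 were lost without the 2 arrays high in pancreatic markers (adjusted p = 0.125 to 0.173), and so were that of Psmb8 after IFN-γ (0.0629) and that of Psmb10 between genotypes (0.0640). Without the low-intensity filter all 7 of these calls were lost (0.0706 to 0.204), as they were when the other groups were left out of the fit (0.059 to 0.350).

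Regulators of class I transcription had 12 genes tested, and 1 was called in each of 2 responses. Irf8, an interferon regulatory factor, went from 80.5 and 71.03 to 288 and 268 after IFN-γ (1.88, limma adjusted p = 0.000142, and 0.0614 with other groups left out of the fit), and from 90.5 and 88.3 to 110.3 and 100.4 in Socs3-deleted mice given IL-6 (0.24, not called). Jak2, a kinase of both receptors, was called in Socs3-deleted mice given IL-6, from 45.8 and 48.3 to 78.6 and 80.6 (0.76, limma adjusted p = 0.00608), and against control mice under IL-6 (0.64, limma adjusted p = 0.0194). After IFN-γ it was at 0.20. The Jak2 calls were lost without Socs3-deleted IL-6 replicate 2 (0.057 and 0.0987) and without the 2 arrays high in pancreatic markers (0.0769 and 0.0553) and with other groups left out of the fit (0.147 and 0.254), and the second also without either control IL-6 array (up to 0.153). Irf1, the factor best known for driving class I genes, went from 200.1 and 237 to 536 and 801 after IFN-γ (1.59) with an adjusted p of 0.0595. It passed in 5 of 22 alternatives: after quantile normalization (0.0418), with no floor (0.0338), with an intensity trend (0.0489) and without either Socs3-deleted IL-6 array (0.0252 each), and its adjusted p ran up to 0.494 in the others.

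The remaining roles had no call in any response. The 6 peptide trimming enzymes tested lay between -0.52 and 0.20, with Nrd1 at -0.52 and Blmh at -0.43 in Socs3-deleted mice given IL-6. The 5 chaperones tested lay between -0.35 and 0.13, with Ganab, a glucosidase subunit, at -0.35 in that response. Calreticulin (Calr), also a listed chaperone, lay below the floor on all arrays and was not tested. Of 13 other class I and class I-like genes tested, H2-Q1 was at -0.28 after IFN-γ and -0.31 in Socs3-deleted mice given IL-6, and H2-Q5 was at 0.35 in the latter and 0.33 in control mice. In control mice H2-Q5 read 373 and 283 under PBS, the lower being replicate 2, and 437 and 379 after IL-6. Both H2-Q probe sets carry the family suffix.

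**Figure D4:**
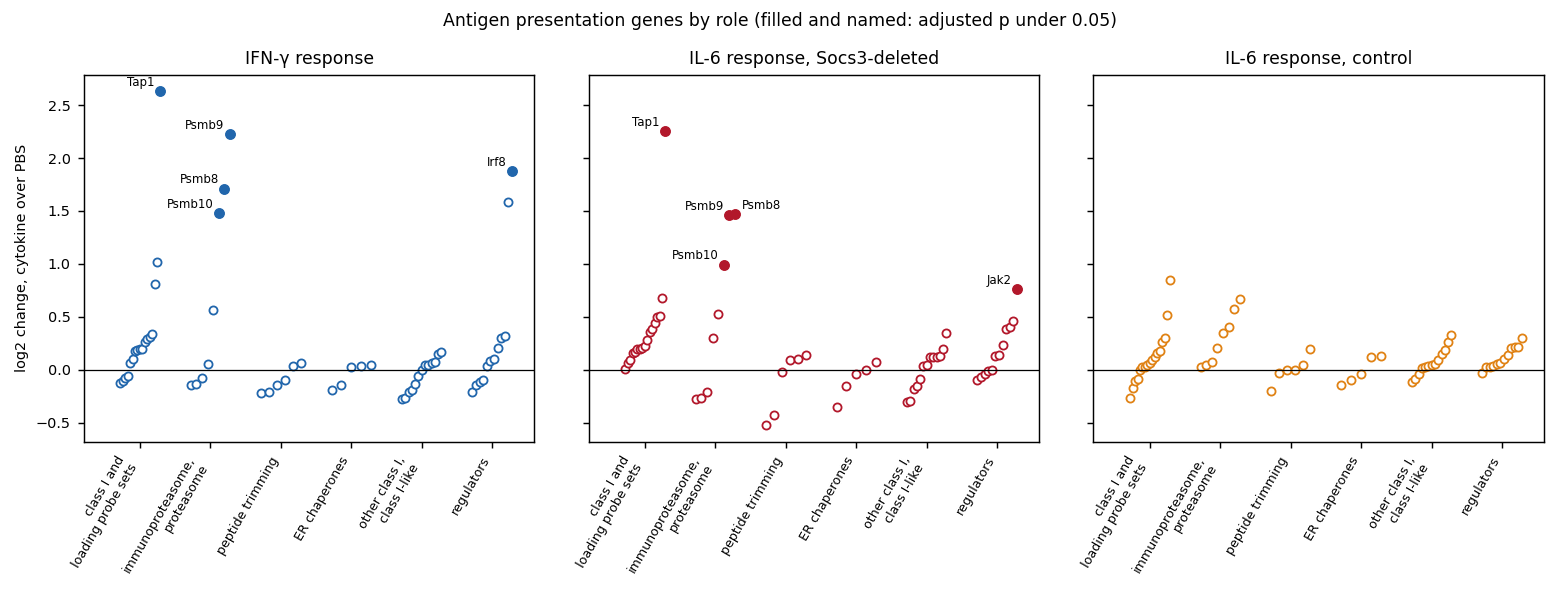
Log2 change, cytokine over PBS, of the 17 class I and peptide loading probe sets and of 44 further antigen presentation genes by role (brightest probe set of each gene), in the 3 responses; filled, named points had an adjusted p under 0.05. After IFN-γ the named points are Tap1, Psmb9, Psmb8, Psmb10 and Irf8, in Socs3-deleted mice given IL-6 they are Tap1, Psmb8, Psmb9, Psmb10 and Jak2, and after IL-6 in control mice there are none.

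Among 6967 other genes, those with the pattern most like Tap1 103035_at over the 12 arrays were Gbp7 (Pearson r 0.987), Psmb9 (0.979), Gbp3 (0.976), Igtp (0.975) and Cxcl9 (0.970). Over the 8 arrays other than the 2 groups where Tap1 was high, the same correlations were 0.958, 0.957, 0.815, 0.982 and 0.715. Their IFN-γ responses ran from 2.23 for Psmb9 to 5.57 for Cxcl9. For B2m the 5 nearest were Mgst1 (0.927), Cyb5a (0.900), Flt4 (0.874), Ak3 (0.859) and Plg (0.855), and none of these 5 changed by more than 0.39 on the log2 scale in the 3 responses. The arrays share scaling, and the values carry no test.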

How the data were processed

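Liver total RNA on 12 Affymetrix arrays gave 1 intensity per probe set and array. The authors deposited linear intensity values, and their software, background correction and scaling are not given in the sources used here. Groups came from the sample titles. The members and gene lists were chosen with earlier results of these data known.

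Of 12488 probe sets, 66 controls were left out. Intensities were floored at 33.01, the 25th percentile, and log2 was taken without further normalization, so changes near the floor are understated. The 9641 probe sets above the floor on at least 2 arrays were fitted with limma 3.58.1 (R 4.3.3) as 6 group means, with 6 residual degrees of freedom and 3.38 prior degrees of freedom, and p-values were Benjamini-Hochberg adjusted over all of them. The method was tested on simulated data, drawn independently for each probe set. Differences shared across an array, such as those of the arrays high in pancreatic markers, were not simulated. Symbols came from the platform's probe table, where 10855 probe sets have 1 symbol, 396 several and 1237 none.

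All probe sets with 1 member symbol are named. Of each pathway role, up to 4 called genes or, with none called, up to 2 with the largest change are named, each by its brightest probe set, and for Tap1 and B2m the 5 most alike genes. Marker lists for 9 cell types were summed per array. Alternatives covered normalization, floor, filter, trend, array weights, the samples fitted, a replicate block and leaving out each array. Leaving out the 2 arrays high in pancreatic markers and a crossed block were chosen after seeing the data.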

Additional observations from a re-analysis of the deposited data

Results flagged for a closer look

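For Irf8, of the pathway lists, the IL-6 response of Socs3-deleted mice differed by a direct test from the IFN-γ response of Interferon-gamma-/- mice, a contrast in which both the cytokine and the genotype change. The first minus the second was -1.64 (limma adjusted p = 0.0148), with values of 0.24 and 1.88 in each. In 8 of the 12 fits that left out an array the adjusted p was over 0.05 (0.0503 to 0.151), for either control PBS array, either Socs3-deleted PBS array, Socs3-deleted IL-6 replicate 2, Interferon-gamma-/- PBS replicate 2 and either IFN-γ array. It was also over 0.05 without the low-intensity filter (0.0630), with other groups left out of the fit (0.131) and without the 2 arrays high in pancreatic markers (0.303).

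For 3 members both cytokine arrays lay above both PBS arrays in one response and below both in another. How many of all probe sets did so was not counted, so whether this is unusual for the members cannot be said. In single responses, 923, 1214 and 1832 of 9641 probe sets lay above after IFN-γ, IL-6 in control and IL-6 in Socs3-deleted mice. Those below were 1636, 1378 and 2030. B2m was lower after IFN-γ (-0.13) and higher in Socs3-deleted mice given IL-6 (0.09), and the tested difference of 0.22 was not called (limma adjusted p = 1). H2-M3 102730_at was lower after IL-6 in control mice (-0.11) and higher in Socs3-deleted mice (0.16), a difference of 0.27 that was not called (limma adjusted p = 0.999). It was also higher after IFN-γ (0.07), while 102731_g_at, the brighter H2-M3 probe set, overlapped in the control IL-6 response (-0.08). H2-T24 was higher after IFN-γ (0.31) and lower after IL-6 in control mice (-0.17). The difference between the IFN-γ and control IL-6 responses was not tested.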

How the results depend on the processing

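The Tap1 changes after IFN-γ and in Socs3-deleted mice given IL-6 stayed positive under all alternatives, at 2.52 to 2.75 and 2.17 to 2.34. The count of called members fell from 1 to 0 without the low-intensity filter after IFN-γ (Tap1 adjusted p = 0.0573), in Socs3-deleted mice given IL-6 (0.0543) and between genotypes under IL-6 (0.160). In the last 2 it also fell to 0 when other groups were left out of the fit (0.0746 and 0.345) and without the arrays high in Prss2 (0.103 and 0.106). Leaving out 1 array gave 0 to 1 called members in the control IL-6 response, the difference of IL-6 responses and the genotypes under IL-6.

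Calls over all probe sets after IFN-γ were 8 without the filter, 28 with array weights, 10 with other groups left out of the fit, 19 leaving out the arrays high in Prss2, and 20 to 63 leaving out an array. After IL-6 in Socs3-deleted mice they were 28 without the filter, 1 with other groups left out, 9 leaving out the arrays high in Prss2, and 33 to 113 leaving out an array. Between genotypes under IL-6 they were 22, 0 and 35 in the same order, 223 with array weights and 13 to 95 leaving out an array. For the difference of IL-6 responses they were 8 at a floor of the 50th percentile, 1 with other groups left out, 0 leaving out the arrays high in Prss2 and 1 to 15 leaving out an array. For the IL-6 response of Socs3-deleted mice minus the IFN-γ response they were 1 and 8 at floors of the 10th and 50th percentile, 0 with other groups left out, 0 leaving out the arrays high in Prss2 and 0 to 16 leaving out an array. Leaving out an array gave 0 to 8 calls in the control IL-6 response and 0 to 8 between genotypes under PBS.

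With the replicate block, called members after IFN-γ were 2 in place of 1, the second being Tap2 (0.81, limma adjusted p = 0.0126), and Psmb8 lost its call in Socs3-deleted mice given IL-6 (0.0546). It changed no other call of the genes named in those responses. Deviations of same-numbered arrays correlated at -0.11 to 0.66 between the groups compared. The 0.66 was between the PBS and IFN-γ arrays of Interferon-gamma-/- mice, the response in which the block called Tap2. Between PBS and IL-6 arrays the correlation was 0.14 in control and 0.12 in Socs3-deleted mice. Each comparison has 2 pairs and the labels give no shared source for a number, so the numbers were not taken as pairs. Crossing the numbers between Interferon-gamma-/- and control mice under PBS gave 0 calls.

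Signs turned in the IFN-γ response for H2-D1 97540_f_at (0.062 after quantile normalization, and -0.231 to 0.067 leaving out an array), H2-K1 93120_f_at (-0.213 to 0.0995) and H2-K1 97700_at (-0.019 to 0.405). In the control IL-6 response they turned without the arrays high in Prss2 for H2-K1 97125_f_at (-0.103, and -0.103 to 0.287 leaving out an array), H2-Q4 (-0.047, and -0.047 to 0.573), 102161_f_at, shared among 10 genes (-0.025, and -0.025 to 0.519), and Tap1 162278_r_at (0.042, and -0.571 to 0.042). They turned on leaving out an array for 97174_r_at, shared with H2-K1 (-0.109 to 0.117), and for Irf1 in Socs3-deleted mice given IL-6 (-0.078 to 0.877). The cause was not tested. Among 2685 values under alternatives for comparisons not printed, 2574 held, 70 moved, 37 turned sign and 4 newly passed. Each group has 2 arrays, which limits the precision of every change.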
